A study of Mus musculus with 6 samples.

Results

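St8sia6, a gene for a sialyltransferase, and 7 Siglec receptor genes of the mouse were followed across 6 whole melanomas. The 8 genes were taken by symbol, Siglece, Cd33, Siglec1, Siglecf, Siglecg, Cd22 and Siglech beside St8sia6, and all 8 were found among the 54532 genes of the deposited table. The set was selected on the FPKM of St8sia6 and its receptors in these same tumors, with the group difference already known, so that difference is a description here and no p-value is given for any member. Of the 8 genes, 7 had a mean of at least 0.5 FPKM over the 6 tumors and entered the fit across 15820 genes, and Siglecf lay just under that level.

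The tumors labelled Gli2CA were grown from BRAFV600EPTEN-/- melanoma cells carrying an active form of Gli2, a transcription factor of the Hedgehog pathway. The tumors they were set against were labelled NTC, for a non-targeted control in the same cell line. Cells of both kinds had been cultured with puromycin, and each implant into a C57Bl/6 mouse held 1000000 of them in 100 uL of an even mix of PBS and matrigel. Day 28 was the day of harvest, and each group has 3 samples. The labels give neither the age of the mice nor whether each sample came from its own mouse, so the spread between samples may be technical in part. A whole tumor holds host leukocytes, vessels and stroma beside the implanted cells, and in such bulk RNA fewer cells of a type and less RNA per cell cannot be told apart.

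The messenger RNA of each tumor was sequenced, and the authors deposited FPKM, a fragment count divided by transcript length and by the depth of the sample. The totals of fragments computed back from these values ran from 16225377 to 22274064 per sample. Gli2 itself stood at 3.22, 5.82 and 1.61 FPKM in Gli2CA replicates 1 to 3, against 8.88, 11.1 and 7.96 FPKM in NTC replicates 1 to 3, which goes against the label. Whether reads of the introduced Gli2 would be counted under the mouse gene is not stated in the sources used here, so these values check the label only in part. Every direction below is therefore that of the tumors labelled Gli2CA. The pigment genes that define melanocytes were low. Tyrp1 was at 0 in all 6 tumors, and Tyr, Dct and Mlana stood at no more than 0.0639, 0.0914 and 0.504 FPKM. Pmel stood at 0.673 to 1.96 FPKM in the tumors labelled Gli2CA and at 0.871 to 1.49 FPKM in NTC tumors. Sox10 stood at 51.5 to 97.1 FPKM in the tumors labelled Gli2CA and at 83.7 to 177 FPKM in NTC tumors, and Mitf at 6.08 to 6.49 and 8.28 to 10.4 FPKM.

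Sialic acids are the outermost sugars of many cell surface glycans. Siglecs are lectin receptors, carried mainly by leukocytes, that bind them, and most of them damp the activity of their cell through cytoplasmic inhibitory motifs that recruit the phosphatases Ptpn6 and Ptpn11. St8sia6 joins a sialic acid to another through an alpha-2,8 bond and in mice makes ligands of Siglec-E, the product of Siglece; such ligands on tumor cells are known to restrain myeloid cells.

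Siglecf, Siglecg, Cd33 and Siglece, of the CD33-related branch, lie together on mouse chromosome 7, between bases 43351341 and 43660161, and Siglech lies apart from them. The stretches before the starts of Siglece and Siglecf are shown because they hold no bases of annotated exons. Both are the 250 bases before the RefSeq start on GRCm38.p6, written along the gene's own strand, with each match to the PU.1 core GAGGAA or its reverse complement TTCCTC in capitals; PU.1 is a transcription factor of myeloid cells and B cells. Siglece is read from the minus strand (chr7:43660162-43660411) and Siglecf from the plus strand (chr7:43351091-43351340).
Siglece: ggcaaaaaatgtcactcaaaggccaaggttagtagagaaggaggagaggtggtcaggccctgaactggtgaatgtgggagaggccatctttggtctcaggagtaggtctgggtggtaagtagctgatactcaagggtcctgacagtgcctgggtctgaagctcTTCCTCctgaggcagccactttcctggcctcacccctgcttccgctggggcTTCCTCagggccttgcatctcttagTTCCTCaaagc
Siglecf: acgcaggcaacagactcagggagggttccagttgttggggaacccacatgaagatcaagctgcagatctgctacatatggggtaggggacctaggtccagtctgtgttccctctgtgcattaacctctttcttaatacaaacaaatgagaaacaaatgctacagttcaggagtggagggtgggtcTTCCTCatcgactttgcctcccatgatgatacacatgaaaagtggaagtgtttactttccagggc
The Siglece window held 3 matches and the Siglecf window 1. There were 8 windows for 7 of the 8 genes, with 2 for Siglecg and none for Siglec1. Apart from the windows of Siglece and Siglecf, each held 6 to 250 bases of annotated exons. All 250 bases of the St8sia6 window lay in annotated exons. The PU.1 core was in 4 of the 8, those of Siglece, Siglecf and Cd33 and 1 of Siglecg, against 23.3% of the 32851 windows of the same length. The Gli consensus GACCACCCA or its reverse complement TGGGTGGTC was in none of the 8, the St8sia6 window included, and in 0.225% of all windows. These are matches of letters in short windows and nothing is drawn from them about either factor.

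St8sia6 (ENSMUSG00000003418, chromosome 2, 13651021 to 13794064, minus strand of GRCm38 as annotated by GENCODE M21) had 6.22, 8.54 and 6.74 FPKM in Gli2CA replicates 1, 2 and 3, against 20.2, 36.2 and 28.4 FPKM in NTC replicates 1, 2 and 3. The groups did not overlap, and the lowest NTC tumor was 2.36 times the highest Gli2CA tumor. Between 515 and 584 fragments lay behind each Gli2CA value, against 1895 to 3220 behind each NTC value, so counting error is small beside the spread between NTC tumors. The group means were 7.17 ± 1.22 and 28.3 ± 7.98 FPKM (SD, n = 3 each), and the log2 fold change of FPKM plus 0.5 was -1.88 (SE 0.27). An antisense gene annotated within St8sia6, Gm37126, was at 0 in all 6 tumors.

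Among the 20 sialyltransferase genes, St8sia6 held the ninth place by mean FPKM in the tumors labelled Gli2CA and the third in NTC tumors. FPKM is per length, but the length behind it is a mean over a gene's annotated transcripts, so this order between genes is approximate. In the tumors labelled Gli2CA it stood below St3gal5 at 10.1 ± 1.56 FPKM, without overlap, and above St6gal1 at 5.05 ± 1.54 FPKM, whose values overlapped its own. In NTC tumors it stood below St3gal2 at 54.7 ± 16.5 FPKM, without overlap, and above St6galnac6 at 26.0 ± 4.78 FPKM, which overlapped it. St3gal4, which adds sialic acid in alpha-2,3 linkage, was the most abundant in both groups at 349 ± 81.8 and 324 ± 78.6 FPKM (SD, n = 3 each).

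The genes on either side of St8sia6 did not share its direction. Within 300 kb, 4 genes entered the fit, and all 4 had positive estimates. Hacd1, an enzyme of long-chain fatty acid synthesis, lies 56218 bases away and stood at 14.6, 12.8 and 17.0 FPKM in Gli2CA replicates 1 to 3, against 8.28, 9.13 and 7.79 FPKM in NTC replicates 1 to 3. Vim, the intermediate filament gene vimentin, overlapped between the groups at 1163 to 3398 FPKM and 1443 to 2142 FPKM. None of the 4 passed an adjusted p of 0.05 in limma, and the choice of this window was made after the data were seen.

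**Figure D1:**
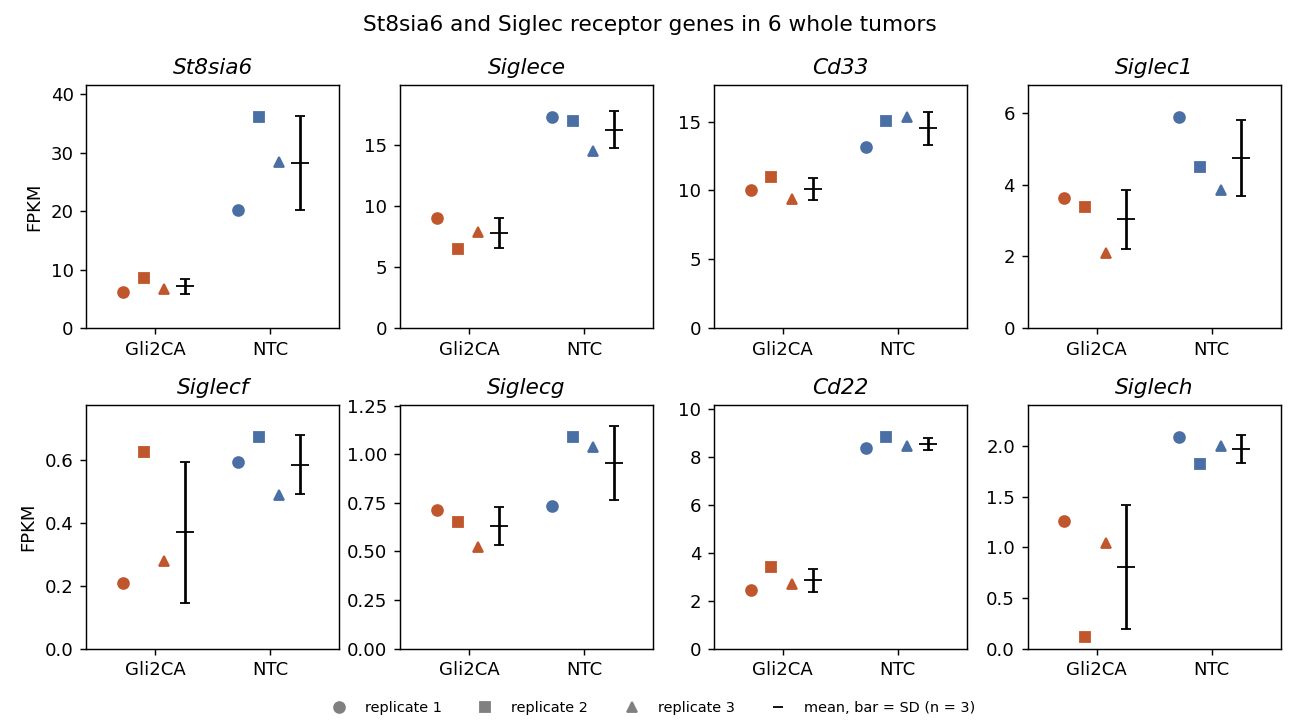
Points are the FPKM of St8sia6 and of each Siglec receptor gene in the 3 tumors labelled Gli2CA (left of each panel) and the 3 NTC tumors (right), with the mean and SD beside them and a separate axis from 0 for each gene. Every gene but Siglecf has its Gli2CA points below its NTC points, by the widest margins in St8sia6 and Cd22 and by the narrowest in Siglec1 and Siglecg.

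Siglece (ENSMUSG00000030474, chromosome 7, 43651070 to 43660161, minus strand), the gene of an inhibitory receptor of neutrophils, monocytes and macrophages, had 8.97, 6.50 and 7.87 FPKM in Gli2CA replicates 1 to 3, against 17.3, 16.9 and 14.5 FPKM in NTC replicates 1 to 3. No Gli2CA tumor came near an NTC tumor, and the lowest NTC value was 1.61 times the highest Gli2CA value. The log2 fold change was -1.02 (SE 0.22), and the mean FPKM of the tumors labelled Gli2CA was 48.0% of the NTC mean.

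Cd33 (ENSMUSG00000004609, chromosome 7, 43524216 to 43544428, minus strand), a receptor of myeloid cells, was the most abundant receptor gene in the tumors labelled Gli2CA. It stood at 10.0, 10.99 and 9.38 FPKM there, against 13.1, 15.0 and 15.4 FPKM in NTC replicates 1 to 3. The groups were apart by a factor of 1.19 at their closest, with a log2 fold change of -0.50 (SE 0.21). Siglec1 (ENSMUSG00000027322, chromosome 2, 131069220 to 131086765, minus strand) encodes sialoadhesin, a macrophage receptor without an inhibitory motif. It had 3.63, 3.37 and 2.09 FPKM in Gli2CA replicates 1 to 3, against 5.89, 4.49 and 3.85 FPKM in NTC replicates 1 to 3. Its groups were only 1.06-fold apart at their closest, and the log2 fold change of -0.58 had an SE of 0.28 and was -0.37 without Gli2CA replicate 3.

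Cd22 (ENSMUSG00000030577, chromosome 7, 30865402 to 30880342, minus strand), an inhibitory receptor best known from B cells, had the lowest log2 fold change of the receptors with a pseudocount of 0.5; Siglech was lower in limma-voom, at -1.74 against -1.61, and level with it with a pseudocount of 0.1, at -1.57 against -1.56. It stood at 2.46, 3.40 and 2.70 FPKM in Gli2CA replicates 1 to 3, against 8.39, 8.84 and 8.44 FPKM in NTC replicates 1 to 3. The NTC tumors were nearly equal, and the lowest of them was 2.47 times the highest Gli2CA tumor, a wider gap than that of St8sia6. The values came from 92 to 105 fragments in each tumor labelled Gli2CA, against 285 to 356 in each NTC tumor, and the log2 fold change was -1.44 (SE 0.23). Of 6 B cell genes 2 entered the fit, 0 passed, and the 6 summed to 3.39 to 6.69 FPKM in the tumors labelled Gli2CA and to 5.40 to 8.28 FPKM in NTC tumors. Most of that sum was Cd79b, a chain of the B cell receptor complex, which overlapped between the groups at 2.48 to 4.38 FPKM in the tumors labelled Gli2CA and 3.69 to 6.02 FPKM in NTC tumors. Pax5, the transcription factor of B cell identity, stood at no more than 0.264 FPKM in any tumor. The part of B cells in the Cd22 difference was not tested.

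Siglecg (ENSMUSG00000030468, chromosome 7, 43408204 to 43418358, plus strand), an inhibitory receptor of B cells and some myeloid cells that binds Cd24, was low. It had 0.715, 0.650 and 0.522 FPKM in Gli2CA replicates 1 to 3, against 0.736, 1.09 and 1.04 FPKM in NTC replicates 1 to 3. These rest on 27 to 36 fragments per tumor labelled Gli2CA and 42 to 59 per NTC tumor, the groups nearly touch, and the log2 fold change was -0.36 (SE 0.29).

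Siglech (ENSMUSG00000051504, chromosome 7, 55768178 to 55778925, plus strand) marks plasmacytoid dendritic cells and microglia and signals through the adaptor Tyrobp. It stood at 1.27, 0.115 and 1.05 FPKM in Gli2CA replicates 1 to 3, against 2.09, 1.82 and 2.0 FPKM in NTC replicates 1 to 3. Gli2CA replicate 2 had 3 fragments, where replicates 1 and 3 had 40 and 34 and the NTC tumors 57 to 75. The log2 fold change was -1.05 (SE 0.41), and without Gli2CA replicate 2 it was -0.58. Of 7 plasmacytoid dendritic cell markers 6 entered the fit and 0 passed, with a sum of 70.7 to 80.3 FPKM in the tumors labelled Gli2CA and 58.3 to 110 FPKM in NTC tumors, most of it from Lair1, which other leukocytes carry too. Pacsin1 was lower without overlap, at 0.481 to 0.915 FPKM in the tumors labelled Gli2CA and 1.77 to 3.07 FPKM in NTC tumors, with a log2 fold change of -1.28 (SE 0.30). Ccr9 and Klk1 averaged 47.1% and 47.9% of their NTC means, with overlap. Runx2 and Ly6d averaged 69.0% and 83.1%, also with overlap. Cox6a2 and Lair1 went the other way, with log2 fold changes of 0.35 (SE 0.93) and 0.19 (SE 0.28) and overlapping groups. The part of these cells in the Siglech difference was not tested.

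Siglecf (ENSMUSG00000039013, chromosome 7, 43351341 to 43359531, plus strand), a receptor of eosinophils and alveolar macrophages, had 0.208, 0.628 and 0.278 FPKM in Gli2CA replicates 1 to 3, against 0.595, 0.675 and 0.489 FPKM in NTC replicates 1 to 3. It was the only member whose groups overlapped, through Gli2CA replicate 2. Its 39 fragments over the 3 tumors labelled Gli2CA and 71 over the 3 NTC tumors gave a ratio adjusted for depth of 0.599, with an exact 95% interval of 0.395 to 0.898 that covers counting error only. The eosinophil genes were low, with Ear6 at 0 in all 6 tumors and Epx at 0 in 5 of 6. Prg2 overlapped between the groups, at 0 to 0.883 FPKM in the tumors labelled Gli2CA and 0.226 to 0.943 FPKM in NTC tumors. Ccr3 was lower without overlap, at 0.202 to 0.264 FPKM and 0.316 to 0.379 FPKM, on 13 to 24 fragments per tumor. The list's 6 genes summed to 0.263 to 1.32 FPKM in the tumors labelled Gli2CA and 0.648 to 1.46 FPKM in NTC tumors. The part of eosinophils in the Siglecf values was not tested.

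Counted together, all 7 members in the fit were lower in the tumors labelled Gli2CA with no overlap between the groups, as were 17.9% of the 15820 genes, while 15.9% were higher without overlap. In limma, a linear model over all genes, St8sia6 and Cd22 were 2 of the 55 genes past an adjusted p of 0.05, or 0.348% of those tested, and 2 of the 13 lower ones, or 0.0822%. As the members were chosen with this contrast known, nothing is read from these counts. Without 1 library, both passed only when Gli2CA replicate 2 was left out, and 0 members passed without Gli2CA replicate 1 or 3 or without NTC replicate 1, 2 or 3. All 7 kept negative estimates in each of the 18 alternative settings in which they were fitted.

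The 7 receptor genes summed to 27.2, 25.7 and 23.9 FPKM in Gli2CA replicates 1 to 3, against 48.1, 48.9 and 45.6 FPKM in NTC replicates 1 to 3. Cd33 made up 39.6% ± 3.09 of that sum in the tumors labelled Gli2CA and 30.6% ± 3.18 in NTC tumors (SD, n = 3 each). Cd22 made up 11.2% ± 2.11 and 18.0% ± 0.534, with no overlap between the groups. Siglece held 30.4% ± 4.39 and 34.1% ± 2.14, and its groups overlapped. Siglec1 averaged 11.7% and 9.96%, Siglech 3.16% and 4.16%, Siglecg 2.45% and 2.01% and Siglecf 1.46% and 1.23%, in Gli2CA and NTC tumors. By mean FPKM, Cd33 came before Siglece in the tumors labelled Gli2CA, and Siglece before Cd33 in NTC tumors. The 2 genes did not overlap in the tumors labelled Gli2CA and did in NTC tumors.

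**Figure D2:**
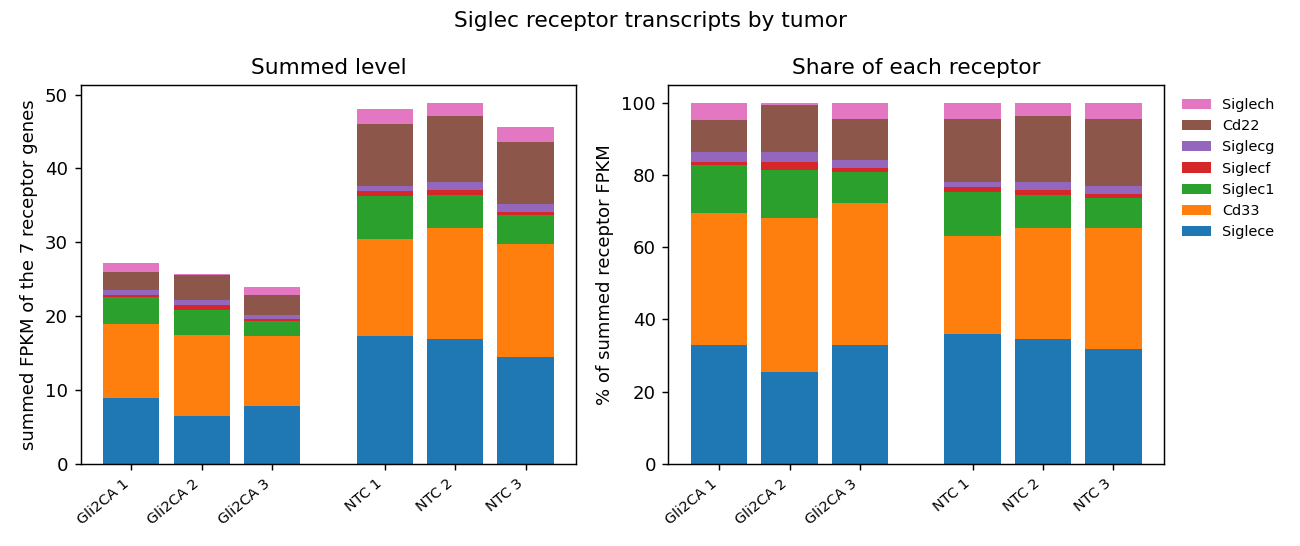
Bars give, for each tumor labelled Gli2CA (left) and each NTC tumor (right), the summed FPKM of the 7 receptor genes in the first panel and the share of each gene in that sum in the second. The sum is 23.9 to 27.2 FPKM in the tumors labelled Gli2CA and 45.6 to 48.9 FPKM in NTC tumors, and the Cd22 share is smaller in each tumor labelled Gli2CA.

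Markers of the cells that carry these receptors were measured in the same tumors. Of 10 macrophage genes 0 passed in limma, all 10 had negative estimates and 7 were lower without overlap, as were 17.9% of all tested genes. Their sum was 1837 to 2228 FPKM in the tumors labelled Gli2CA and 2426 to 3781 FPKM in NTC tumors, most of it from C1qa, C1qb and C1qc. The genes differed in size of change, from Csf1r at 37.6% and Cx3cr1 at 41.1% of the NTC mean, without overlap, to Fcgr1 at 96.0% and Mrc1 at 101%. Fcgr1, Mrc1 and Cd68, the last at 59.9%, overlapped between the groups. Of 5 leukocyte genes 0 passed, 4 had negative estimates and 3 were lower without overlap, Laptm5 at 40.2%, Lcp1 at 55.3% and Coro1a at 69.1% of the NTC mean. Cd53 and Ptprc, the common leukocyte antigen, overlapped between the groups, with Ptprc at 78.5 to 88.7 FPKM in the tumors labelled Gli2CA and 70.4 to 101 FPKM in NTC tumors. Of 4 monocyte genes 0 passed, with sums of 405 to 1208 and 233 to 566 FPKM, and of 6 neutrophil genes 0 passed, with sums of 48.8 to 63.9 and 31.8 to 64.0 FPKM, given for Gli2CA and then for NTC tumors. Most of the monocyte sum was Plac8, at 347, 1174 and 524 FPKM in Gli2CA replicates 1 to 3, against 182, 260 and 483 FPKM in NTC replicates 1 to 3. In the same order of groups, Ccr2 averaged 27.5 and 34.7 FPKM, Ly6c2 23.2 and 19.2 FPKM and Chil3 7.47 and 3.93 FPKM. All 4 monocyte genes overlapped between the groups. The neutrophil genes went in both directions. S100a8 was higher without overlap, at 13.4 to 16.0 FPKM in the tumors labelled Gli2CA and 2.02 to 11.7 FPKM in NTC tumors. Csf3r was lower without overlap, at 4.78 to 7.70 FPKM and 7.84 to 13.2 FPKM, and the other neutrophil genes overlapped. Of all tested genes, 15.9% were higher and 17.9% lower without overlap.

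Each receptor was also set against the macrophage and leukocyte genes tumor by tumor, and only Cd22 had no overlap between the groups on both scales. Those genes differed among themselves, with Ptprc at 105% and Laptm5 at 40.2% of the NTC mean. The share of all genes without overlap on these scales was not counted. The log2 value of Cd22 minus the mean log2 value of the 10 macrophage genes, with the NTC mean at 0, was -1.15, -0.50 and -0.70 in Gli2CA replicates 1 to 3, against -0.03, 0.26 and -0.23 in NTC replicates 1 to 3. With the 5 leukocyte genes in place of the macrophage genes it was -1.35, -0.40 and -0.93, against -0.03, 0.31 and -0.28, again with no overlap. Siglece lay below every NTC tumor relative to the leukocyte genes, at -0.43 to -0.55 against -0.42 to 0.33, and overlapped relative to the macrophage genes. Cd33, Siglec1, Siglecf, Siglecg and Siglech overlapped between the groups on both scales. The part of leukocyte numbers in the receptor differences was not tested.

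**Figure D3:**
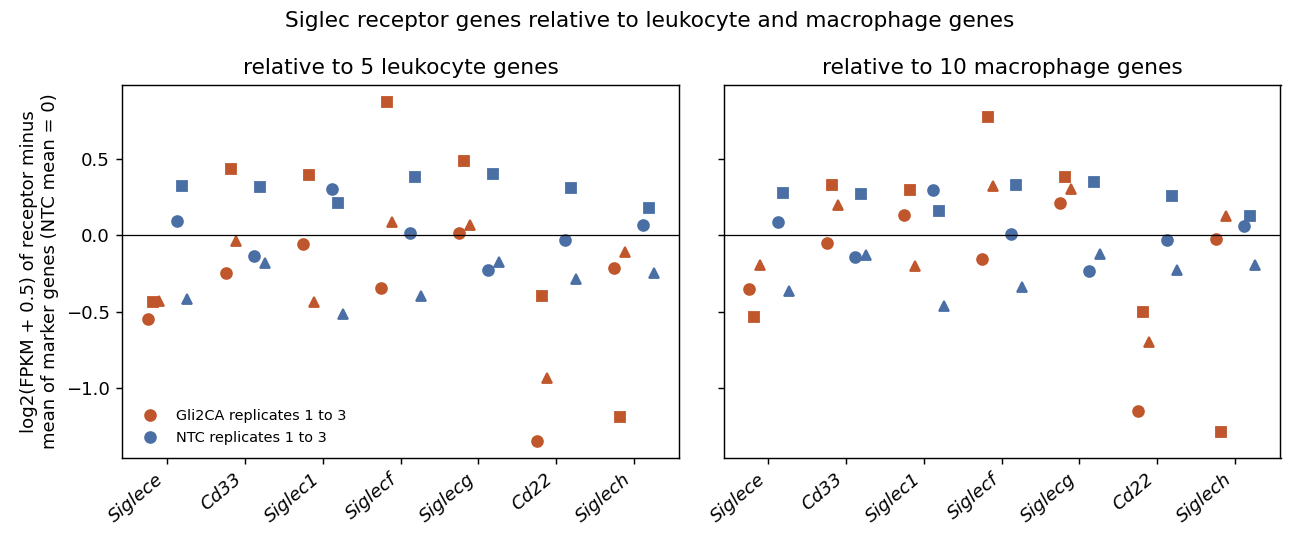
Each point is 1 tumor (circle, square and triangle for replicates 1, 2 and 3; Gli2CA left of NTC), and the height is the log2(FPKM + 0.5) of a receptor gene minus the mean of 5 leukocyte genes (first panel) or 10 macrophage genes (second panel), with the NTC mean at 0. Cd22 is the gene whose groups are apart in both panels, and the lowest Siglech point is Gli2CA replicate 2.

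The rest of the sialic acid pathway was read from 8 lists of 49 genes, of which 41 entered the fit. Of these, 0 passed an adjusted p of 0.05 in limma, where 0.348% of all genes did, and 0 passed in limma-voom on the recovered fragments. With protein-coding genes alone, rescaled, 4 passed, all lower: Gne, Inpp5d, Selplg and St8sia2. These were also among the 5 that passed with sample weights and the 5 that passed with a replicate block. At an unadjusted p under 0.05 in limma there were 9 of the 41, a share below the 27.5% of all tested genes at that level. Of the 9, 8 were lower and 1 higher, where 2325 of all 15820 genes were lower and 2030 higher. Without overlap, 11 of the 41 were lower and 1 higher, against 17.9% and 15.9% of all tested genes. As the lists were chosen with earlier results of these data known, nothing is read from these counts. The median log2 fold change was -0.38 over the 41 genes and -0.04 over all genes tested.

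Among the other enzymes of the St8sia family, St8sia2, which builds polysialic acid on the neural cell adhesion molecule, stood at 1.33, 2.85 and 1.04 FPKM in Gli2CA replicates 1 to 3, against 10.9, 10.7 and 3.25 FPKM in NTC replicates 1 to 3. NTC replicate 3 was close to Gli2CA replicate 2, and the log2 fold change of -1.89 (SE 0.48) had an adjusted p of 0.0763 in limma. St8sia4, the other polysialic acid enzyme, had a log2 fold change of -0.02 (SE 0.26). St8sia1, St8sia3 and St8sia5 lay under 0.5 FPKM on average and were not tested. Of 12 tested enzymes that add sialic acid in alpha-2,3 or alpha-2,6 linkage, 10 had negative estimates; St6galnac4 stood at -0.57 (SE 0.22) and St6gal1, which makes the alpha-2,6 ligands that Cd22 prefers, at -0.92 (SE 0.48). NTC replicate 2, at 23.4 FPKM, carried most of the St6gal1 value, which was -0.31 without it.

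Of 9 tested genes for the making, transport and trimming of sialic acid, Gne, the enzyme that starts sialic acid synthesis, stood at 11.1, 6.05 and 8.29 FPKM in Gli2CA replicates 1 to 3, against 18.1, 21.01 and 14.5 FPKM in NTC replicates 1 to 3, with an adjusted p of 0.0798 in limma. Slc35a1, which carries activated sialic acid into the Golgi, had a log2 fold change of 0.52 (SE 0.24). The 3 tested sialidases had negative estimates, Neu2 at -0.69 (SE 0.70), Neu3 at -0.24 (SE 0.28) and Neu1 at -0.18 (SE 0.23). NTC replicate 3 alone, at 3.61 FPKM against no more than 0.364 FPKM in any other tumor, carried the Neu2 value. Without it Neu2 stood at 0.24 and under the level for the fit, and Neu3 at -0.11. Of 4 tested core O-glycan enzymes, Gcnt4 stood at -0.87 (SE 0.29) and C1galt1c1, the chaperone of the core 1 enzyme, at 0.56 (SE 0.25). The other Siglec genes Mag and Siglec15 overlapped between the groups, at -0.18 (SE 0.28) and 0.55 (SE 0.54).

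Downstream of the receptors, Inpp5d, a lipid phosphatase of leukocytes, had the lowest estimate of 6 tested adaptors and phosphatases at -0.99 (SE 0.27, adjusted p = 0.0873 in limma). Syk stood at -0.55 (SE 0.23) and Tyrobp, the adaptor of Siglech, at 0.46 (SE 0.33). The 3 counter-receptor genes had negative estimates. Selplg, which encodes a heavily O-glycosylated leukocyte ligand of selectins, stood at 41.7 ± 14.7 and 86.1 ± 15.4 FPKM (SD, n = 3 each) in Gli2CA and NTC tumors (adjusted p = 0.0827 in limma), and Spn, the sialylated leukocyte protein CD43, at -1.01 (SE 0.30).

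**Figure D4:**
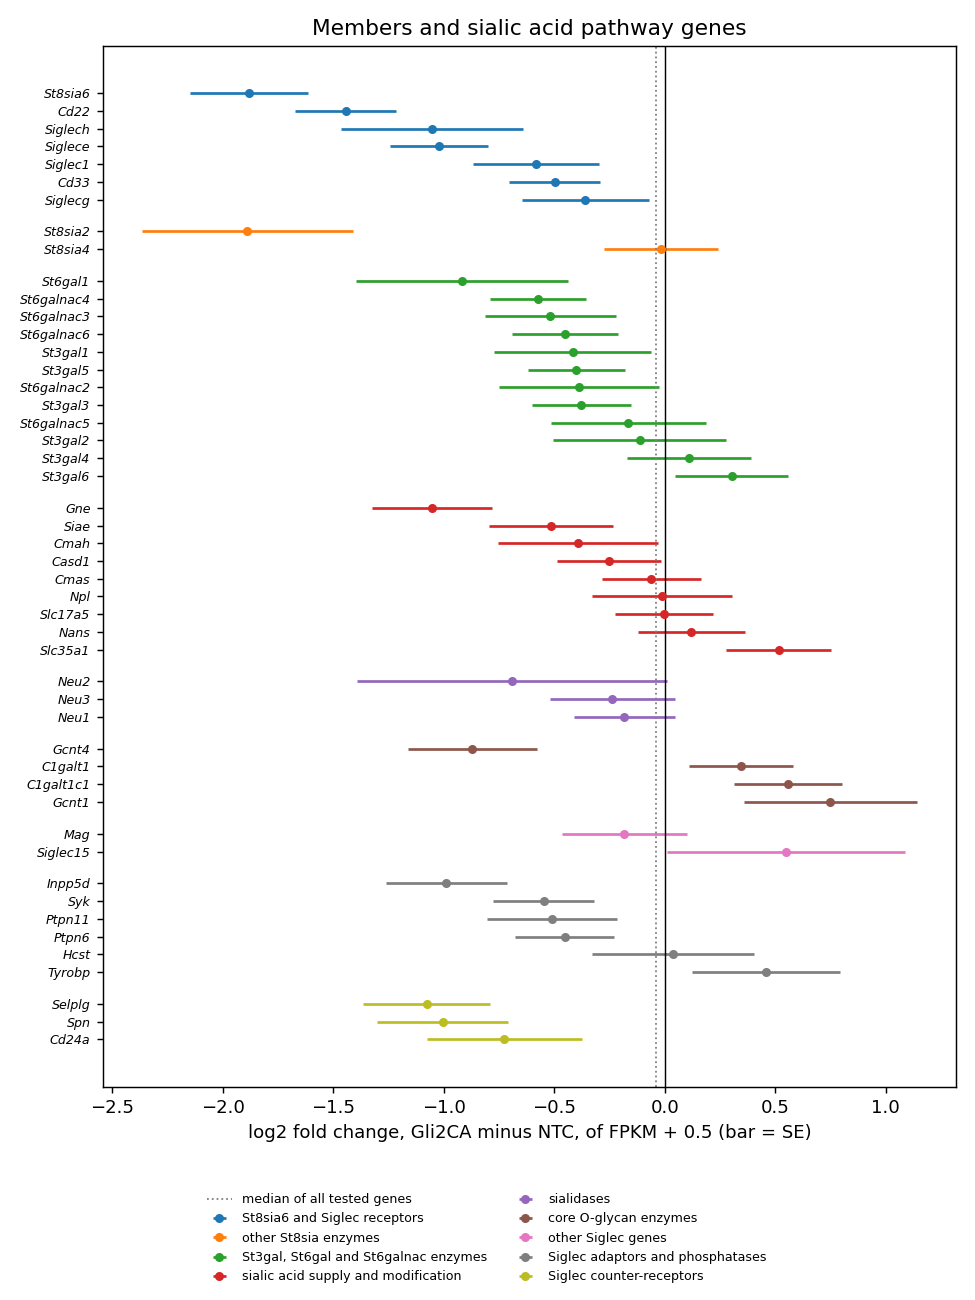
Points are log2 fold changes, Gli2CA minus NTC, of FPKM + 0.5 with their standard errors, for the 7 members in the fit and the 41 tested pathway genes, coloured by list; the dotted line is the median of all tested genes at -0.04. St8sia6, St8sia2 and Cd22 are the farthest to the left.

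The genes whose profiles over the 6 tumors were closest to that of St8sia6, among 13334 tested protein-coding genes, were 9330159F19Rik, Cp, Efna5, Lama2 and Nbl1. The measure was the root mean square difference of log2 values, each gene centred on its own mean, and it ran from 0.194 to 0.233. The closest, 9330159F19Rik, averaged only 0.270 FPKM in the tumors labelled Gli2CA and 2.62 FPKM in NTC tumors. At such low values the 0.5 FPKM added before taking logs narrows its difference, so its likeness to St8sia6 depends on that addition. Efna5 averaged 6.61 and 21.8 FPKM in the same order of groups. Cp, which encodes the copper-carrying ferroxidase ceruloplasmin, averaged 26.1 FPKM in the tumors labelled Gli2CA and 97.6 FPKM in NTC tumors. Lama2, a laminin chain of basement membranes, averaged 6.21 and 21.2 FPKM, and Nbl1, a secreted BMP antagonist, 47.2 and 132 FPKM. For Cd22 the closest were Ldb2 and Tbc1d16, at 0.138 each.

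For Siglech the closest were Spn at 0.171 and Spib, a transcription factor of plasmacytoid dendritic cells and B cells, at 0.175. Spib stood at 0.825, 0.0832 and 0.602 FPKM in Gli2CA replicates 1 to 3, against 1.21, 1.12 and 1.18 FPKM in NTC replicates 1 to 3. Gli2CA replicate 2 was the lowest tumor for both genes, near 0 in each. As Spib was picked for the likeness of its profile to that of Siglech, nothing is read from this shared low value. The closest to Siglece were Slc38a1 and Tnfrsf10b (0.0543 and 0.0653), to Cd33 Plpp6 and Dnajc28 (0.0610 and 0.0627), to Siglec1 Ccdc88c and Akap9 (0.0508 and 0.0660) and to Siglecg Kctd12 and Rapsn (0.0373 and 0.0434). Among pairs of members, Cd33 and Siglecg were closest at 0.106, and St8sia6 was closest to Cd22 at 0.31.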

How the data were processed

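Per the labels' protocols, libraries were made from poly-A RNA of whole tumors with random hexamers. The authors deposited FPKM per gene and sample; the sources used here do not give aligner, counter, build or strand. Ensembl identifiers were joined to GENCODE M21 (GRCm38), with a symbol for 54409 of 54532 genes. FPKM times the mean length of a gene's transcripts gave whole fragments, within 0.1, for 99.6% of low values of genes with 1 transcript and 97.2% with several (20% by chance). No library pair was alike within sampling noise.

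Differences were estimated with limma 3.58.1 (lmFit, eBayes with a variance trend, R 4.3.3) fitted to log2(FPKM + 0.5) over the 15820 genes averaging at least 0.5 FPKM, two-sided, with Benjamini-Hochberg adjustment over all of them and a threshold of 0.05. The 0.5 FPKM added before taking logs understates changes of low genes. In a simulated comparison of 15600 genes, 34% of 2-fold and 87.4% of 4-fold changes were called, and 10.8% of the 130 calls were unchanged genes. The simulation drew genes independently, changed few of them and gave genes of like level and all samples the same spread. Its shares therefore need not hold for these tumors. The named genes are the members, per list the 2 smallest p-values, 5 nearest profiles for St8sia6 and 2 per receptor; Neu1, Tyrobp, the sialyltransferases ranked beside St8sia6, single marker genes and the neighbours of St8sia6 were added after their values were seen. Members and lists were chosen with earlier results of these data known. Sequences are from RefSeq (GRCm38.p6). Python 3.11.15 and matplotlib 3.10.9 prepared tables and plots. The alternatives were other pseudocounts, filters, scalings and weights, no variance trend, limma-voom, a replicate block, omission of each sample and removal of a gene length trend, the last chosen after seeing the data.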

Additional observations from a re-analysis of the deposited data

How the results depend on the processing

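The St8sia6 log2 fold change of -1.88 ran from -2.10 to -1.69 over the fits without 1 library and was -1.50 with the gene length trend of each sample removed, beyond its spread between replicates; the other alternatives kept it within that spread. St8sia6 passed in 10 and Cd22 in 9 of 18 alternatives, Siglece in 3 and the other members in 0. The alternatives refit the same tumors and the members were chosen with this contrast known, so nothing is read from these counts. With the length trend removed, Siglec1 stood at -0.18, Cd33 at -0.30 and Siglecg at -0.12, and limma-voom put Siglech at -1.74; the cause was not tested. The 55 genes called became 145 with a filter at 1 FPKM, 3 with none, 36 with quantile scaling, 736 with protein-coding genes alone, rescaled, 1588 with sample weights and 105 with limma-voom. Without 1 library there were 4 to 119. Protein-coding rescaling put the median of all genes at -0.29, against -0.04, and its calls were 106 higher and 630 lower, against 42 and 13. The 0 pathway genes called became 4 with protein-coding genes rescaled and 5 with sample weights. With the replicate number as a block, 1928 genes and 5 pathway genes were called. Same-numbered samples deviated together at correlations of 0.353, 0.221 and 0.0237 for numbers 1, 2 and 3, against -0.285 to 0.0776 for different numbers. As the third was under 0.1 and the labels name no shared source, the numbers were not taken as pairs; those of 1 and 2 are a hint from the data. Members under 1 FPKM rest on few fragments, and small differences there were not detectable at this depth.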
